A study of Homo sapiens with 4 samples.

Results

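The comparison sets senescent IMR90 cells carrying a hairpin against METTL3 (shMETTL3) beside senescent IMR90 cells carrying a control hairpin (shcontrol), in H3K27ac HiChIP. Its members are 54684 anchors and 410199 anchor pairs with at least 1 paired-end tag (PET) in one library or the other, out of a common set of 55317 anchors used by the 3 senescent samples and 117938 distinct anchors over the 4 samples of the series. Anchors and pairs were matched by their exact ends, so no anchor was merged or trimmed. IMR90 is a strain of human lung fibroblasts. In all senescent groups arrest was driven by ER:RAS, an inducible fusion of the estrogen receptor with H-RASG12V, so both groups carry it. The other senescent sample carries a hairpin against METTL14. The remaining sample of the series is proliferating control cells and does not enter here. The labels give neither the number of hairpins per target nor the time after induction, and the depletion of METTL3 itself was not measured in these files.

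In HiChIP, neighbouring DNA ends are ligated inside fixed nuclei, and an antibody then enriches fragments that carry a histone mark. H3K27ac, acetylation of lysine 27 of histone H3, marks active enhancers and promoters, so a PET joins 2 places of which at least 1 was pulled down with that mark. METTL3 is the catalytic subunit of the enzyme that writes N6-methyladenosine (m6A) on RNA, and METTL14 is its partner. Senescent fibroblasts stop dividing and secrete chemokines, cytokines, proteases and growth factors, a secretory programme driven by enhancers that bind NF-kB, C/EBP and AP-1 factors. The title of the series ties METTL3 to chromatin contacts in senescence.

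The shMETTL3 library holds 623930 PETs in 270754 listed pairs, and the shcontrol library holds 552029 PETs in 258943 pairs. The shMETTL14 library, set beside them, is deeper, with 936492 PETs. Each group is 1 library, so every interval below is an exact 95% interval of a ratio of PPM (PETs per 1000000 PETs of the library) that covers counting error only, and every difference is one between these libraries. At an anchor, acetylation and contact both set the number of PETs and were not separated. A single PET is worth 1.60 PPM in shMETTL3, 1.07 PPM in shMETTL14 and 1.81 PPM in shcontrol, so raw counts of the 3 libraries cannot be ranked directly. Of 8 fibroblast markers, 6 had a promoter anchor with at least 50 PETs. VIM had 179 PETs in shMETTL3 and 148 in shcontrol, PDGFRB was higher (152 and 103, a ratio of 1.31, 1.01 to 1.69) and COL1A2 lower, as given with its list. Of 10 epithelial, endothelial and haematopoietic markers, 7 had no anchor within 5 kb of the gene start, PECAM1 could not be placed, and KRT19 (19 PETs in shMETTL3, 16 in shcontrol) and PTPRC (3 and 6) were below the minimum.

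Most anchors had similar PETs in both libraries, and most of those that differed by the size rule below stood alone. Among 12956 anchors with at least 50 PETs over both libraries the median log2 ratio of shMETTL3 over shcontrol, on PPM plus 1, was -0.0043, and 90% of the anchors lay between -0.73 and 0.74. The size rule used here is a log2 ratio past 1 in size together with an interval that leaves out 1. It was met by 242 anchors as higher in shMETTL3 (1.87% of those tested) and by 172 as lower (1.33%). With the interval alone, 1140 anchors were higher (8.8%) and 1028 lower (7.93%). The 242 higher anchors fell into 184 loci when those within 250 kb of each other were joined, of which 36 held 2 or more and 12 held 3 or more. The 172 lower anchors fell into 145 loci, of which 18 held 2 or more and 4 held 3 or more.

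**Figure D1:**
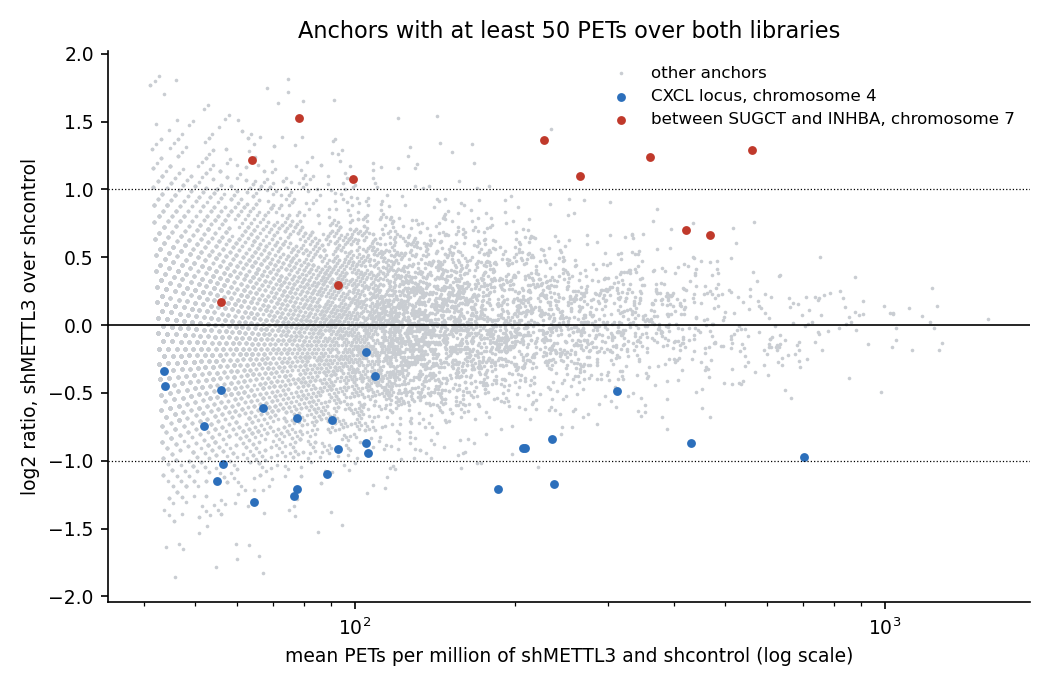
Log2 ratio of PPM plus 1, shMETTL3 over shcontrol, for each of the 12956 anchors with at least 50 PETs (points), against the mean PPM of both libraries on a log scale. Dotted lines mark 2-fold; the CXCL locus on chromosome 4 (blue) lies below 0 at every anchor, and the 41.0 to 41.25 Mb stretch of chromosome 7 between SUGCT and INHBA (red) lies above 0.

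The largest group of lower anchors was the CXCL chemokine locus on chromosome 4, which holds the genes of CXCL8 (interleukin 8), CXCL6, CXCL1, CXCL5, CXCL3 and CXCL2, ligands of the receptors that draw in neutrophils. PETs with an end between 74 and 75 Mb (hg19) numbered 1028 in shMETTL3, 1943 in shMETTL14 and 1616 in shcontrol, 1648, 2075 and 2927 PPM. The ratio of shMETTL3 over shcontrol was 0.563 (0.520 to 0.609). In shMETTL14 the window stood at 0.709 of shcontrol (0.663 to 0.758). The locus was examined with this loss already known, so its ratio is a description. What lies inside it is given here. Of 39 anchors with a PET, 25 had at least 50, and all 25 had a ratio below 1, with the interval below 1 in 18 and the size rule met in 8. Their log2 ratios ran from -1.30 to -0.20 with a median of -0.90. Neighbouring anchors share PETs, so these counts are not independent.

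Of the chemokine promoters, that of CXCL8 had the most PETs. Its anchor (chromosome 4, 74582038 to 74608665) held 296 PETs in shMETTL3, 614 in shMETTL14 and 514 in shcontrol, which are 474, 656 and 931 PPM. The shMETTL3 library was the lowest of the 3, at 0.510 of shcontrol (0.440 to 0.589) and at 0.724 of shMETTL14 (0.628 to 0.833). The promoter anchor of CXCL6 had 29 PETs in shMETTL3 and 60 in shcontrol, a ratio of 0.428 (0.265 to 0.677). That of CXCL3 had 90 and 150 (0.531, 0.404 to 0.694), and that of CXCL2 had 43 and 62 (0.614, 0.406 to 0.920). The intervals of CXCL1 (59 PETs in shMETTL3, 68 in shcontrol, 0.768, 0.532 to 1.10) and CXCL5 (33 and 45, 0.649, 0.401 to 1.04) held 1. Thus 4 of the 6 promoters were lower and none was higher, and all 6 ratios lay below 1. With PETs of 20 kb or more only, the interval of CXCL2 held 1, and 3 of the 5 promoters that could then be tested were lower. The other chemokines of the list lie elsewhere: CCL2 (12 PETs in shMETTL3, 19 in shcontrol) and CCL20 (2 and 9) were below the minimum of 50, and CCL7 had no anchor within 5 kb.

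The promoters of the 4 lower chemokine genes are shown because they share a motif that is bound by NF-kB, the factor that drives them. Each line gives 150 bases before the gene start, 5′ to 3′ on the gene's strand, from RefSeq on GRCh38.p14, a build other than that of the anchors. Capitals mark matches to GGAATTTCC, an NF-kB type site, or to TGACTCA, an AP-1 type site, on either strand.
CXCL8 (chr4:73740419-73740568, plus strand): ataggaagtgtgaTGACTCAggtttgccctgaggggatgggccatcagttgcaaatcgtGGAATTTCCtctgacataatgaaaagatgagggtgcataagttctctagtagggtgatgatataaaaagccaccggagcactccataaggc
CXCL6 (chr4:73836528-73836677, plus strand): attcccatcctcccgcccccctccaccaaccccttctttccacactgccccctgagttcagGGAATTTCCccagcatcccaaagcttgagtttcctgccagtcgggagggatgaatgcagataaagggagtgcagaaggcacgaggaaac
CXCL3 (chr4:74038690-74038839, minus strand): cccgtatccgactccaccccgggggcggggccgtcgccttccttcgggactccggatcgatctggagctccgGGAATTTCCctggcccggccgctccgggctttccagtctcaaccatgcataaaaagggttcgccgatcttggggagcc
CXCL2 (chr4:74099196-74099345, minus strand): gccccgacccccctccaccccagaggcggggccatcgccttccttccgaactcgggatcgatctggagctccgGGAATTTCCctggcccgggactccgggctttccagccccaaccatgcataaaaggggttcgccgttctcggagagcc

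All 6 chemokine promoters of the locus, CXCL1 and CXCL5 included, held 1 match to GGAATTTCC, between positions -91 and -69 from the start. Of 35116 promoters in the RefSeq table, 89 held one within the same 150 bases (0.253%). The genes arose by duplication and their promoters resemble each other, so the matches are not separate events. Only CXCL8 among the 6 also held TGACTCA, which 1014 promoters held (2.89%). A match is a string of letters and says nothing of what was bound in these cells.

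**Figure D2:**
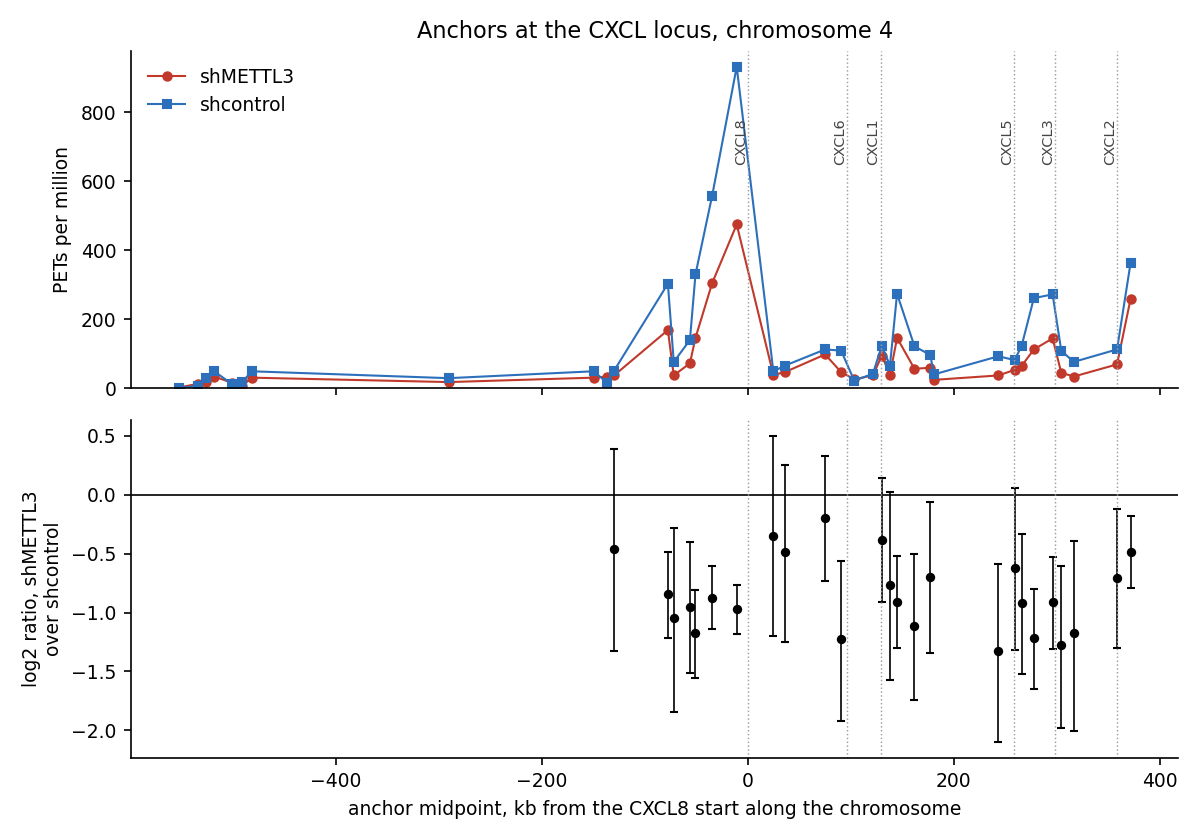
PPM at each anchor of the CXCL locus in shMETTL3 (red circles) and shcontrol (blue squares), above, and the log2 ratio with its 95% counting interval for anchors of at least 50 PETs, below, by distance from the CXCL8 start along the chromosome. Dotted lines mark gene starts; all 25 ratios in the lower panel lie below 0, and the intervals of 18 do not reach it.

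The anchors upstream of CXCL8 were low along with its promoter. Within about 78 kb of the start lie 5 anchors, with log2 ratios from -1.17 to -0.84. The one at 74552744 to 74557867 had 91 PETs in shMETTL3 and 182 in shcontrol, and the one at 74566342 to 74576704 had 190 and 308. The promoter anchor of CXCL8 had PETs to 58 partners in one library or the other. Of the 14 partners with at least 15 PETs over both, 8 had an interval below 1 and none above it. Toward 74532658 to 74535758 there were 2 PETs in shMETTL3 and 17 in shcontrol, a ratio of 0.104 (0.0117 to 0.439). Toward 74552744 to 74557867 there were 25 and 56 (0.395, 0.236 to 0.644), and toward the nearest upstream anchor at 74566342, 23.8 kb away, there were 91 and 126 (0.639, 0.483 to 0.843). On the other side the contact with the anchor at 74640342 to 74643948 had 9 PETs in shMETTL3 and 8 in shcontrol, a ratio of 0.995 (0.341 to 2.97). Contacts with the CXCL1 promoter, 141 kb away, had 7 and 12 PETs (0.516, 0.172 to 1.42), too few to tell.

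The locus was lower at short and long spans alike. Its ratio was 0.508 (0.412 to 0.625) for PETs under 20 kb, 0.571 (0.498 to 0.655) from 20 to 100 kb, 0.578 (0.508 to 0.658) from 100 to 500 kb and 0.564 (0.453 to 0.701) beyond. Set directly against shMETTL14, the ratio of PPM in shMETTL3 was 0.963 (0.778 to 1.19) under 20 kb, 0.827 (0.723 to 0.944) from 20 to 100 kb, 0.815 (0.719 to 0.922) from 100 to 500 kb and 0.586 (0.478 to 0.715) beyond. A difference between the knockdown libraries under 20 kb was thus not detectable. Over the whole genome the same ratio at 500 kb or more was 0.826 (0.818 to 0.833).

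The drop was smaller past 75 Mb, toward neighbours that encode ligands of the EGF receptor. PETs with an end between 75 and 76 Mb stood at 0.845 of shcontrol (0.769 to 0.928). The anchor at 75021203 to 75027354 was still low, with 46 PETs in shMETTL3 and 75 in shcontrol (0.543, 0.368 to 0.794), as was the one at 75191427 to 75196345, 10.4 kb past EPGN, with 41 and 56 (0.648, 0.422 to 0.987). The promoter anchor of EREG, which encodes epiregulin, had 193 and 176 PETs (0.970, 0.787 to 1.20). Of the 17 anchors tested in the window only the first 2 named had an interval below 1, and the median log2 ratio over the 17 was -0.08. PETs with both ends in that window stood at 0.981 of shcontrol (0.875 to 1.10), and those with 1 end outside it at 0.605 (0.508 to 0.719).

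Chromosome 4 as a whole had 25938 PETs in shMETTL3 and 25260 in shcontrol, and its share of all PETs was 0.909 of that in shcontrol (0.893 to 0.924), the lowest of the 23 chromosomes compared. Without the PETs of the CXCL window, a value chosen after seeing the data, it was 0.932 (0.916 to 0.949). The share was 0.931 (0.910 to 0.953) for chromosome 19 and highest at 1.08 (1.05 to 1.11) for chromosome 21.

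The converse was seen on chromosome 7 between SUGCT and INHBA, the gene of the activin A subunit inhibin beta A, a secreted TGF-beta family ligand. Between 41042451 and 41212176, in a stretch with no placed gene, 7 anchors met the size rule as higher, with 1458 PETs summed over them in shMETTL3, 1256 in shMETTL14 and 539 in shcontrol. In this and other sums over anchors, a PET that joins anchors of the same locus counts once in each. The widest of the 7 anchors (41133836 to 41158759) had 498 PETs in shMETTL3, 472 in shMETTL14 and 180 in shcontrol, which are 798, 504 and 326 PPM, and a ratio over shcontrol of 2.45 (2.06 to 2.92). The anchor at 41084158 to 41090821 had 205 PETs in shMETTL3, 126 in shMETTL14 and 70 in shcontrol, and its ratio over shcontrol was 2.59 (1.97 to 3.45). That anchor stood at 329 PPM in shMETTL3, 134 in shMETTL14 and 127 in shcontrol, so it was high in the shMETTL3 library alone.

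The pair that joins those 2 anchors over 58.8 kb had the highest log2 ratio of the named pairs, 2.87, with 37 PETs in shMETTL3, 15 in shMETTL14 and 4 in shcontrol. A second pair of the stretch, from 41133836 to 41158759 and 41193239 to 41212176, had 60 PETs in shMETTL3, 46 in shMETTL14 and 17 in shcontrol (3.12 over shcontrol, 1.80 to 5.71). Of 29 anchors between SUGCT and a point just past INHBA, 23 had at least 50 PETs, and of these 22 had a ratio above 1 and 15 an interval above 1, with a median log2 ratio of 0.67. By span, PETs with an end between 41 and 42 Mb were at 1.93 of shcontrol (1.70 to 2.19) from 20 to 100 kb and at 1.31 (1.16 to 1.48) from 500 kb on. The whole window in shMETTL3 stood at 1.32 of shMETTL14 (1.25 to 1.39), and in shMETTL14 at 1.19 of shcontrol (1.12 to 1.27).

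The INHBA promoter anchor (41730991 to 41751461) was higher too, by less. It had 319 PETs in shMETTL3, 336 in shMETTL14 and 200 in shcontrol, 511, 359 and 362 PPM. The ratio was 1.41 over shcontrol (1.18 to 1.69) and 1.42 over shMETTL14 (1.22 to 1.67). Of its 12 partners with at least 15 PETs, 11 had a ratio above 1, and 2 met the size rule. Contact with 41605469 to 41621808, 128 kb away, had 22 PETs in shMETTL3 and 4 in shcontrol (4.87, 1.65 to 19.4). Contact with 41766159 to 41775271, 29.5 kb away, had 19 and 6 (2.80, 1.08 to 8.57). Contact with the widest anchor of the stretch, 595 kb away, had 29 and 14 PETs (1.83, 0.938 to 3.75), and its interval held 1.

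**Figure D3:**
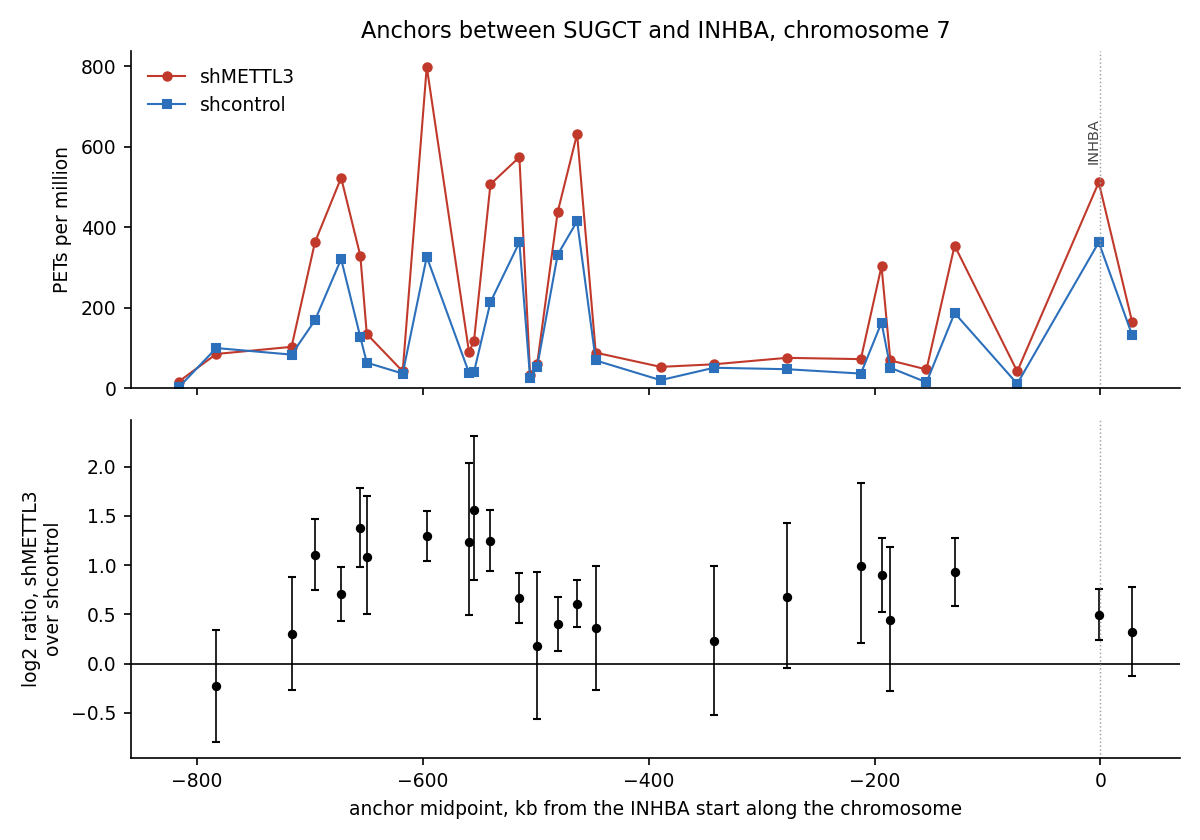
PPM at each of 29 anchors around and before INHBA on chromosome 7 in shMETTL3 (red circles) and shcontrol (blue squares), above, and log2 ratio with its 95% counting interval, below, by distance from the INHBA start along the chromosome. The ratios are highest between 695 and 540 kb from INHBA, and 22 of 23 lie above 0.

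Across the gene lists, promoter anchors were more often lower than anchors at large. The lists were chosen with earlier results of these data known, so the shares below are a description only. Of 112 listed genes, 2 could not be placed, 7 had no anchor within 5 kb of the start, and 24 had fewer than 50 PETs. Of the 79 left, each with an anchor of its own, 19 were lower (24.1%, against 7.93% of all anchors tested) and 4 higher (5.06%, against 8.8%), by the interval alone. Their median log2 ratio was -0.13, against -0.0043 over all. The counts of single lists below are small and are to be read beside these shares over all anchors. Without the 6 at the CXCL locus, left out after seeing the data, 15 of 73 were lower (20.5%) and 4 higher (5.48%). The listed promoter anchors had more PETs, with a median of 174 over both libraries against 84, and calls are more frequent at depth: among the 2567 anchors with the most PETs, 394 were higher and 283 lower. Pairs of a called promoter anchor with a partner, at 20 PETs or more, numbered 77, of which 2 met the size rule as higher and 8 as lower. They belong to the INHBA promoter (both higher) and to those of CXCL8 (4), CXCL3 (2), COL1A2 and VEGFC. Over all 6714 pairs tested, 3.83% met the size rule as higher and 2.35% as lower. The 77 pairs hold PETs that also made the calls of their anchors, so their direction is not a separate result.

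Cytokine genes showed no call. None of the 7 tested promoters of cytokines and their regulators was lower or higher, although 6 of 7 ratios were below 1 and the median log2 ratio was -0.29. IL1B, whose product interleukin 1 beta drives the secretory programme, had 271 PETs in shMETTL3 and 214 in shcontrol (1.12, 0.933 to 1.35). LIF had 254 and 257 (0.874, 0.732 to 1.04). TNFAIP3, the gene of the NF-kB inhibitor A20, had 180 and 186 (0.856, 0.694 to 1.06). These promoters did not differ beyond counting error. IL6 had 103 and 112 (0.814, 0.617 to 1.07), and IL1A had 106 and 115 (0.816, 0.620 to 1.07). The 1-Mb window of IL1A and IL1B stood at 1.06 of shcontrol from 100 to 500 kb (0.907 to 1.24), where the CXCL window stood at 0.578.

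The proteases with the most PETs showed no call. The intervals of PLAU, the urokinase gene (238 PETs in shMETTL3, 230 in shcontrol), and of the matrix metalloproteases MMP14 (172 and 150), MMP3 (164 and 158) and MMP1 (135 and 104) held 1.

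Growth factors were split, with 3 lower and 2 higher of 11. BMP2, a bone morphogenetic protein, had 24 PETs in shMETTL3 and 41 in shcontrol (0.518, 0.299 to 0.878), of which 22 and 40 spanned 100 kb or more. FGF2 had 57 and 78 (0.647, 0.451 to 0.921). VEGFC, a growth factor of lymphatic vessels, had 146 and 170 (0.760, 0.605 to 0.954), and its contact with 177919175 to 177939773, 216 kb away, had 8 and 21 PETs (0.337, 0.129 to 0.792). Besides INHBA, GDF15, a stress-induced TGF-beta family member, was higher, with 91 PETs in shMETTL3, 78 in shMETTL14 and 51 in shcontrol, which are 146, 83.3 and 92.4 PPM. Its ratio was 1.58 over shcontrol (1.11 to 2.27) and 1.75 over shMETTL14 (1.28 to 2.40). The intervals of VEGFA (113 and 107) and, as above, EREG held 1. With PETs of 20 kb or more only, FGF2, VEGFC and GDF15 kept their direction and their intervals held 1.

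Of 12 transcription factors of the secretory programme 2 were lower (16.7%) and 1 higher (8.33%), against 7.93% and 8.8% of all anchors tested. RELA, the p65 subunit of NF-kB, had the lowest log2 ratio of the listed promoters with at least 50 PETs, -1.21, with 24 PETs in shMETTL3, 43 in shMETTL14 and 50 in shcontrol, which are 38.5, 45.9 and 90.6 PPM (0.425 over shcontrol, 0.2496 to 0.704). FOSL1, an AP-1 subunit induced by ERK signalling, had 229 and 255 PETs (0.795, 0.662 to 0.954). ETS1, a factor downstream of RAS signalling, was higher, with 187 PETs in shMETTL3 and 122 in shcontrol (1.36, 1.07 to 1.72). Beyond its 3′ end, 138 kb away, 3 anchors between 128163458 and 128190225 met the size rule as higher, with 172 and 66 PETs in sum. KLF6 (317 PETs in shMETTL3, 293 in shcontrol) and ETS2 (288 and 248), which had the most PETs in the list, had intervals that held 1. With PETs of 20 kb or more only, the interval of FOSL1 held 1.

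Genes of RAS-ERK feedback and receptors gave 4 lower and none higher of 12. SPRED1, an inhibitor of RAS activation, had 48 PETs in shMETTL3, 70 in shMETTL14 and 89 in shcontrol, which are 76.9, 74.7 and 161 PPM (0.477 over shcontrol, 0.329 to 0.685), with 23 and 53 PETs at 100 kb or more in shMETTL3 and shcontrol. SPRY2, another feedback inhibitor, had 113 and 136 (0.735, 0.568 to 0.9504). DUSP1, a phosphatase of MAP kinases, had 390 and 415 (0.831, 0.722 to 0.957). PHLDA1 had the most PETs of any listed promoter, 737 and 741, and a ratio of 0.880 (0.794 to 0.976). With a scale factor for each span bin, PHLDA1 was at 0.908 and SPRY2 at 0.778, with intervals that held 1, which left 2 of 12 lower. DUSP5 (332 and 251) and DUSP6 (219 and 207), phosphatases of ERK, were neither higher nor lower. The list's median log2 ratio, -0.04, was near that of all anchors.

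In the list of the cell cycle and nuclear architecture 2 of 7 promoters were lower. CDKN2B, which encodes the CDK inhibitor p15, had 69 PETs in shMETTL3 and 88 in shcontrol (0.694, 0.499 to 0.962). HMGA1, a chromatin protein of senescent heterochromatin foci, had 63 and 83 (0.672, 0.476 to 0.943), with 38 and 61 PETs at 100 kb or more (0.551, 0.358 to 0.840) and 25 and 22 at shorter span (1.01, 0.544 to 1.87). With PETs of 20 kb or more only, its interval held 1. The intervals of HMGA2 (149 PETs in shMETTL3, 129 in shcontrol), CCND1 (98 and 85), CDKN1A (100 and 74) and CDKN2A (42 and 35) held 1.

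Matrix and contractile genes gave 3 lower and 1 higher of 12, with a median log2 ratio of -0.28. THBS1, which encodes thrombospondin 1, had 42 PETs in shMETTL3, 62 in shMETTL14 and 74 in shcontrol, which are 67.3, 66.2 and 134 PPM (0.502 over shcontrol, 0.335 to 0.743). FN1, the fibronectin gene, had 65 and 85 (0.677, 0.482 to 0.946), and COL1A2, a chain of type I collagen, had 141 and 173 (0.721, 0.573 to 0.906). TGFBI was higher, with 89 PETs in shMETTL3 and 52 in shcontrol (1.51, 1.06 to 2.17). With a scale factor for each span bin it stood at 1.42 and its interval held 1. COL6A3 (226 and 195) and CCN1 (121 and 101), the matrix genes with the most PETs besides COL1A2, were neither higher nor lower. Of the m6A writers, erasers and readers, 8 of 11 were below the minimum, among them METTL3 (8 PETs in shMETTL3, 16 in shcontrol) and METTL14 (8 and 13). IGF2BP2 (88 and 78), WTAP (61 and 73) and ALKBH5 (29 and 23) were tested, and their intervals held 1.

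**Figure D4:**
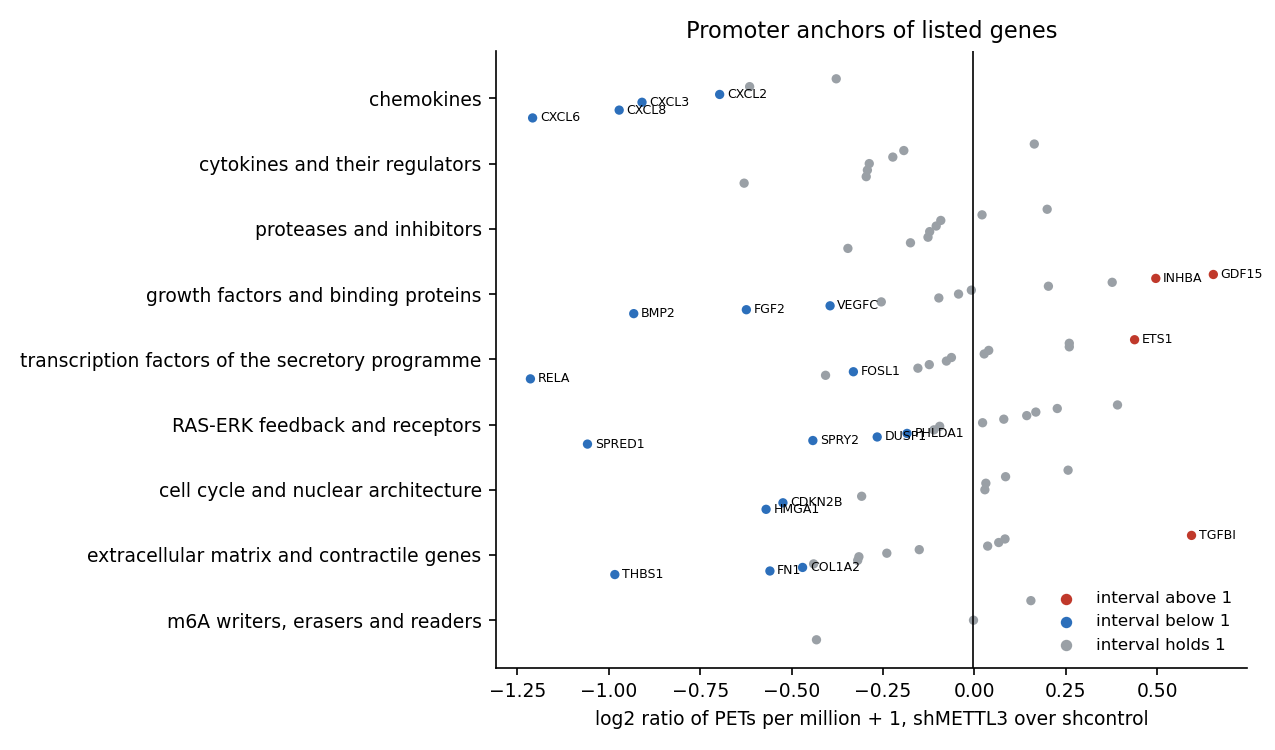
Log2 ratio of PPM plus 1, shMETTL3 over shcontrol, at the promoter anchor of each listed gene with at least 50 PETs (points, 78 genes in 9 lists). Blue points have a 95% counting interval below 1 (18 genes), red points above 1 (4 genes) and grey points hold 1; the vertical line is the median of all anchors tested.

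Among single anchors with at least 100 PETs, the highest log2 ratio, 1.66, was on chromosome 13 from 111613803 to 111621273, between ANKRD10 and ARHGEF7, with 87 PETs in shMETTL3, 74 in shMETTL14 and 24 in shcontrol. It belonged to a locus of 4 higher anchors with 261 and 86 PETs in shMETTL3 and shcontrol. On chromosome 21, 7 higher anchors from 44606126 to 44939227 held 598 PETs in shMETTL3, 578 in shMETTL14 and 212 in shcontrol. They flank and include the promoter anchor of SIK1, a salt-inducible kinase gene, with 41 and 17 PETs in shMETTL3 and shcontrol (2.13, 1.19 to 4.01). Scaled to depth, PETs with an end from 44 to 45 Mb in shMETTL3 stood at 1.47 of shMETTL14 (1.32 to 1.64). In shMETTL14 they stood at 1.12 of shcontrol (0.984 to 1.28). The pair from 44911887 to 44924236 and 44928376 to 44932707, toward HSF2BP, had 53 PETs in shMETTL3, 54 in shMETTL14 and 11 in shcontrol, which are 84.9, 57.7 and 19.9 PPM (4.26 over shcontrol, 2.20 to 9.05). Near IER5, an immediate early gene on chromosome 1, the anchor at 181065538 to 181076515 had 149 and 52 PETs in shMETTL3 and shcontrol (2.53, 1.84 to 3.55). The rest of the 10 highest lay near PRSS22 on chromosome 16 (133 and 40 PETs), within PTPRM on chromosome 18 (82 and 28), within NRP1 on chromosome 10 (130 and 45) and within ARHGAP26 on chromosome 5 (113 and 40), or at the loci named above. Their log2 ratios were 1.31 to 1.66.

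The 10 lowest anchors had log2 ratios from -1.47 to -1.08. Besides 3 at the CXCL locus, 2 lay within MAGI2 on chromosome 7, at 78582545 to 78594006 with 31 PETs in shMETTL3, 74 in shMETTL14 and 72 in shcontrol (49.7, 79.0 and 130 PPM), and at 78717108 to 78727693 with 41, 64 and 83 (65.7, 68.3 and 150 PPM). Both are part of a locus of 3 lower anchors. On chromosome 3, the anchor at 110525888 to 110537081 before NECTIN3 had 39 and 82 PETs in shMETTL3 and shcontrol, and on chromosome 6 the one at 159073640 to 159078098 within SYTL3 had 36 and 68. On chromosome 8, 3 anchors were among the 10, the lowest of all at 16216909 to 16225634, between MSR1 and FGF20, with 31 PETs in shMETTL3, 145 in shMETTL14 and 77 in shcontrol. That is 49.7, 155 and 140 PPM, so shMETTL3 alone was low there. The other loci of 3 lower anchors lay between IL1RAP and CCDC50 on chromosome 3 (97 and 202 PETs in sum) and in the histone gene cluster on chromosome 6 from 27797320 to 27863715 (53 and 119). Histone genes are near-identical copies, so counts at them are uncertain.

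Higher pairs were the more frequent kind at short span and lower pairs at long span. Of 6714 pairs with at least 20 PETs over both libraries, 257 met the size rule as higher in shMETTL3 (3.83%) and 158 as lower (2.35%). By the interval alone, 336 were higher (5%) and 217 lower (3.23%). With a scale factor for each library and span bin in place of the total, the counts were 204 higher and 209 lower, so the split between higher and lower pairs turned with that scaling. Of the 5788 pairs under 100 kb, 240 were higher (4.15%) and 117 lower (2.02%). Of the 926 pairs at 100 kb or more, 17 were higher (1.84%) and 41 lower (4.43%). The median log2 ratio was 0.11 from 20 to 50 kb, -0.12 from 200 to 500 kb and -0.17 over the 40 pairs from 500 kb to 1 Mb, of which none was higher and 5 were lower.

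The smaller share of long-span PETs in shMETTL3 was seen on each chromosome taken alone. Spans of at least 100 kb accounted for 42.2% of PETs in shMETTL3 and for 45.9% in shcontrol, a ratio of 0.920 (0.915 to 0.925). Within the 23 chromosomes the ratio ran from 0.898 on chromosome 22 (36.4% in shMETTL3, 40.5% in shcontrol) to 0.952 on chromosome 21 (42.7% and 44.9%), and all 23 intervals lay below 1. Against shMETTL14, the share at 1 to 2 Mb in shMETTL3 was 0.777 (0.767 to 0.788), and at 50 to 100 kb it was 1.06 (1.06 to 1.07). Chromosomes of 1 library share its preparation and are not replicates, so the knockdown and the library cannot be told apart here.

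**Figure D5:**
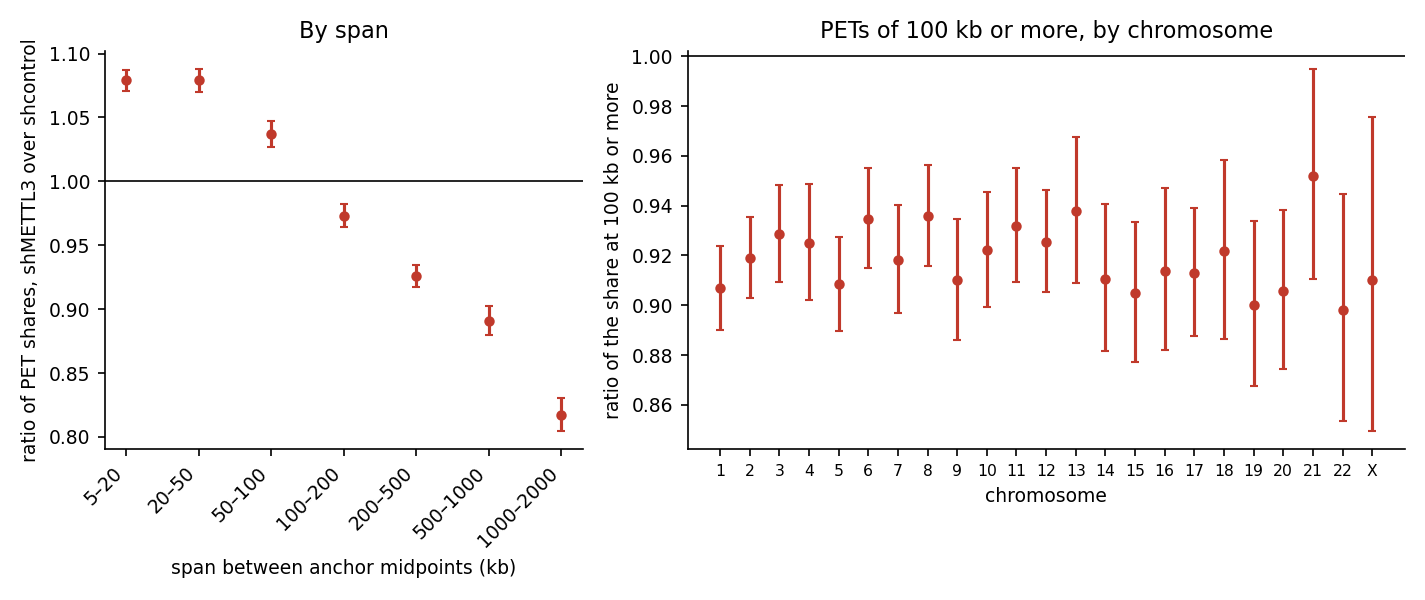
Ratio of the share of PETs, shMETTL3 over shcontrol, by span between anchor midpoints in kb (left) and for PETs of 100 kb or more on each chromosome (right), with 95% counting intervals. The ratio drops from 1.08 at 5 to 20 kb to 0.817 at 1000 to 2000 kb, and on each of the 23 chromosomes the interval lies below 1; the vertical axes do not start at 0.

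Anchor ratios were slightly lower where more of the anchor's PETs were of long span. That share was taken from the same PETs as the ratio, so the share and the ratio are not independent. In the fifth of tested anchors with the smallest share of PETs at 100 kb or more (at most 25.3%), the median log2 ratio was 0.07, with 10.8% higher and 6.32% lower by the interval. In the fifth with the largest share (58.0% or more) the median was -0.08, with 6.29% higher and 11.4% lower. Anchors lower by the size rule had a median of 50.8% of their PETs at 100 kb or more, those higher 37.1% and all tested 40.5%. Lower anchors had a median width of 5139 bp and higher ones of 4974 bp, against 5926 bp for all.

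The highest of the named pairs, besides those on chromosomes 7 and 21, spanned 10.3 to 89.1 kb. On chromosome 15 between CYP11A1 and SEMA7A, the anchor at 74683192 to 74694423 was joined to 74705460 to 74713119 by 37 PETs in shMETTL3, 30 in shMETTL14 and 7 in shcontrol (4.68 over shcontrol, 2.06 to 12.4). The second of these anchors lies in SEMA7A, which encodes a membrane-bound semaphorin. The same first anchor was joined to 74675763 to 74679310 by 36 PETs in shMETTL3, 17 in shMETTL14 and 8 in shcontrol. Near PRSS22 on chromosome 16 a pair had 46, 28 and 10 PETs in shMETTL3, shMETTL14 and shcontrol, and next to IER5 a pair had 49, 39 and 12. On chromosome 11, 31.1 kb upstream of DKK3, which encodes a secreted member of the Dickkopf family, a pair had 34 and 8 PETs in shMETTL3 and shcontrol. Within ADAMTS12, a metalloprotease gene on chromosome 5, a pair had 54 and 13. A pair that joins TNFSF15 and TNFSF8, genes of TNF family ligands on chromosome 9, had 48 and 13 PETs (3.27, 1.74 to 6.57).

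The lowest named pairs included contacts over long distances. The lowest joined 97628859 to 97652984 on chromosome 5 with an anchor in RGMB, a BMP co-receptor gene, over 468 kb, with 11 PETs in shMETTL3, 39 in shMETTL14 and 34 in shcontrol, which are 17.6, 41.6 and 61.6 PPM (0.286 over shcontrol, 0.131 to 0.579). The MYC promoter anchor on chromosome 8 was joined to 127836097 to 127854488, 906 kb away, by 13 PETs in shMETTL3, 23 in shMETTL14 and 32 in shcontrol, which are 20.8, 24.6 and 58.0 PPM (0.359 over shcontrol, 0.173 to 0.704). Upstream of TNFAIP3 the pair from 138042693 to 138061422 and 138083084 to 138090528 had 17, 40 and 41 PETs in those libraries, which are 27.2, 42.7 and 74.3 PPM (0.367 over shcontrol, 0.195 to 0.660). Between COL6A1 and COL6A2, genes of type VI collagen, a pair had 18 and 42 PETs in shMETTL3 and shcontrol (0.379, 0.206 to 0.673). The pair of the CXCL8 promoter with 74552744 to 74557867 was also among the 10. The other 5 lay near ATP13A3 on chromosome 3, between PSD3 and SH2D4A on chromosome 8, at KRT39 on chromosome 17, between POLR2E and GPX4 on chromosome 19 and at PSG5 on chromosome 19, with ratios from 0.354 to 0.383.

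Loops were counted as called where a pair held 4 PETs or more and its deposited false discovery rate did not pass 0.01. They numbered 14883 in shMETTL3 and 13388 in shcontrol, and 8141 were called in both, 54.7% of the shMETTL3 loops and 60.8% of the shcontrol loops. Of the 14883 shMETTL3 loops 820 had no PET in shcontrol, and of the 13388 shcontrol loops 605 had none in shMETTL3. Among all listed pairs, those found in both libraries held 69.7% of shMETTL3 PETs and 69.6% of shcontrol PETs. The other PETs lay in pairs absent from the other library, so such absence was common among all listed pairs. By pairs, 151256 of 270754 in shMETTL3 had no PET in shcontrol, and 139445 of 258943 in shcontrol had none in shMETTL3. Called loops hold at least 4 PETs, and by the counts above absence was less frequent among them. Whether absence at single loops goes beyond counting error over all loops examined was not tested. The named examples were chosen after their values were seen, as those at genes among the 6 with the most PETs on each side. A loop that joins the CCN1 promoter anchor, CCN1 encoding a matricellular protein, to 85985485 to 85994434 in DDAH1 had 14 PETs in shMETTL3, 9 in shMETTL14 and 0 in shcontrol. The 14 PETs are 4.13-fold above a floor of 3 in shcontrol in PPM, and the interval of the ratio over shcontrol starts at 2.935. A loop from 186647858 to 186652764 at PTGS2, the gene of cyclooxygenase 2, to 186702420 to 186712555 had 0 PETs in shMETTL3, 5 in shMETTL14 and 10 in shcontrol. The 10 PETs are 3.77-fold above a floor of 3 in shMETTL3 in PPM, and the interval of the ratio over shcontrol reaches 0.395. A loop at FOXF2 on chromosome 6 had 0 PETs in shMETTL3, 4 in shMETTL14 and 12 in shcontrol. The 12 PETs are 4.52-fold above that floor, and the interval of the ratio over shcontrol reaches 0.318.

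In 1-Mb windows with at least 200 PETs over both libraries, 183 of 1601 had an interval above 1 (11.4%) and 305 below it (19.1%). The split was more even with a scale factor for each span bin, at 226 above and 254 below. The highest lay on chromosome 16 from 46 to 47 Mb next to the centromere, where 208 PETs in shMETTL3, 282 in shMETTL14 and 104 in shcontrol (333, 301 and 188 PPM) gave, over shcontrol, 1.77 (1.39 to 2.26). In that window 3 anchors that met the size rule as higher lay within 19.3 kb, from 46390795 to 46410100. Chromosome 21 from 44 to 45 Mb, with SIK1, stood at 1.65 (1.45 to 1.88), chromosome 1 from 181 to 182 Mb, with IER5, at 1.58 (1.34 to 1.86), chromosome 7 from 41 to 42 Mb, with INHBA, at 1.57 (1.47 to 1.67) and chromosome 3 from 193 to 194 Mb, with HES1 and OPA1, at 1.53 (1.16 to 2.04). The lowest was chromosome 8 from 69 to 70 Mb, with C8orf34, at 0.543 (0.441 to 0.666; 154 and 251 PETs). Chromosome 2 from 147 to 148 Mb followed at 0.553 (0.413 to 0.737; 80 and 128 PETs) and then the CXCL window. The histone window on chromosome 6 from 27 to 28 Mb was at 0.596 (0.496 to 0.715), and chromosome 4 from 95 to 96 Mb, with BMPR1B and SMARCAD1, at 0.603 (0.473 to 0.767; 118 and 173 PETs). In that last window shMETTL14 stood at 0.988 of shcontrol (0.816 to 1.20). In the others shMETTL14 was also below shcontrol. It stood at 0.801 (0.678 to 0.946) on chromosome 8 and at 0.631 (0.492 to 0.809) on chromosome 2. It stood at 0.709 (0.663 to 0.758) in the CXCL window and at 0.625 (0.532 to 0.735) in the histone window.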

How the data were processed

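H3K27ac HiChIP was measured in 1 library per group, grouped by the genotype label; the labels' protocol names METTL4 where the genotype label names METTL14. Per the submitters' processing notes, HiC-Pro 3.1.0 and hg19 were used; the names of the deposited lists carry that of the interaction caller Mango, and the settings of the calling are not given here. The deposited files list anchor pairs with a raw count of PETs and, per pair, a value in a column with no name, taken to be a q-value that the authors' interaction caller gave. Spans run from 5 to 2000 kb.

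Counts were scaled to 1000000 PETs of the library (PPM); a PET counted once in each of its anchors. Log2 ratios used a pseudocount of 1 PPM. Intervals are exact conditional binomial (Clopper-Pearson) 95% intervals; PCR reads are not independent molecules, so they cover counting error only. Minimums were 50 PETs per anchor, 20 per pair and 200 per window. Named were the 10 highest and 10 lowest anchors (at least 100 PETs) and pairs (at least 40 PETs) past the size rule, the 5 highest and 5 lowest windows, and listed genes called by the interval, with 2 to 4 others per list of most PETs, and a few more for context, chosen after their values were seen. TMM factors came from edgeR 4.0.16, the rest from Python 3.11.15 with scipy 1.17.1.

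No hg19 annotation was given. Positions of 212 genes on hg19 were set from general knowledge, and 207 were kept whose length or shift fitted RefSeq on GRCh38.p14; a gene between 2 named genes may be missing. A promoter anchor is the one at, or nearest within 5 kb of, a gene's start. Members, lists and the loci described were chosen with earlier results of these data known. The result of 1 listed gene is not reported here; it stays in the counts over all listed genes and is not plotted.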

Additional observations from a re-analysis of the deposited data

How the results depend on the processing

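Counts of calls moved with the minimum and the interval. With doubled minimums 50 anchors were higher and 21 lower, and 73 pairs were higher and 32 lower. With no minimum the counts were 1190 and 1239 anchors and 975 and 1035 pairs. A 99% interval left 104 higher and 49 lower pairs. With spans of 20 kb or more only, 160 anchors were higher, and 167 pairs were higher and 88 lower. By construction, the minimums and the span limit change how many features are tested. Windows of 500 kb gave 299 higher and 319 lower, and a minimum of 400 PETs 188 higher and 195 lower, where the main split was 183 and 305. The ratio for PETs at 100 kb or more was 0.940 with spans of 20 kb or more, 0.900 at equal depth in pairs of at least 4 PETs, 0.861 at 500 kb or more, and 0.898 to 0.952 over single chromosomes. The CXCL ratio moved by less than its interval under span bins, spans of 20 kb or more and equal depth. Of the 43 named anchors and promoters, all kept their direction under the scalings tried. The interval came to hold 1 for SPRY2, PHLDA1 and TGFBI with a scale per span bin, and for CXCL2, FGF2, FOSL1, GDF15, HMGA1, SPRY2 and VEGFC with spans of 20 kb or more; the cause was not tested. No paired analysis was possible because each group is 1 library. No replicate could be left out. Depth limits what single pairs can show: most listed pairs hold 1 PET, 64.5% in shMETTL3 and 66.2% in shcontrol.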
